A study of Mus musculus with 6 samples.

Results

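Genes of the interferon response and of antigen presentation were followed in mouse embryonic stem cells exposed to the small molecule SC1. They form a list of 39 genes covering interferon receptors, interferon regulatory factors, antiviral effectors, the ISG15 system and the antigen-processing machinery. Probes were assigned to them by the transcript accession each array probe carries, which gave 47 of the 55681 probes and 38 of the 39 genes. No probe carried an accession that the RefSeq table lists for Mx2. Of the 38 genes, 32 were well above background on all 3 arrays of SC1 or of DMSO and were tested, among 25421 genes in all, counting each accession without a RefSeq name as a gene.

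The cells were of the J1 line, embryonic stem cells of strain 129S4/SvJae derived from the inner cell mass, adapted to gelatin and grown without feeder cells named in the labels. Samples received 1 µM SC1 for 6 h (3 samples) or DMSO, its solvent, for 6 h (3 samples). All samples were grown with LIF, the cytokine that sustains self-renewal through STAT3, in a serum replacement. SC1, also called pluripotin, is known as an inhibitor of the kinase ERK1 and of RasGAP. No interferon was added according to the labels. The 6 samples came from the J1 line alone, and nothing in the labels states that replicates were separate cultures, so every p describes the spread between these samples.

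Type I interferons bind the receptor IFNAR1 and IFNAR2, which activates the kinases TYK2 and JAK1. These phosphorylate STAT proteins, STAT2 among them, which join IRF9 and bind the interferon-stimulated response element (ISRE) in the promoters of antiviral genes. Interferon gamma acts through IFNGR1, IFNGR2, JAK1 and JAK2, and STAT dimers then bind gamma-activated sites (GAS). Mouse embryonic stem cells are known for a weak response to interferon and for little MHC class I at the surface.

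Promoters were searched for ISRE and GAS letters, the elements named above. RefSeq (build GRCm38.p6) gave promoters, 250 bases before to 50 bases after the start, for 34 of the 38 genes, and none for Parp14, Rtp4, Tap2 and Usp18. GAAA, then any 2 bases, then GAAA again stood for the ISRE core and TTCNNNGAA for GAS, each read on both strands, and the motifs can overlap. An ISRE match was present in 29.3% of the 41 member promoters and in 3.44% of all 32851 promoters of the same length. A GAS match was present in 26.8% of the member promoters and in 8.3% of all promoters, and matches of the 2 motifs overlapped in 2 member promoters. Of the 34 genes, 19 held either motif and 15 held neither, among them Ifngr1, Irf9, Ifitm1 and Psmb9. A match is a run of letters and does not show that a factor binds there.

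The 4 called genes with the largest changes that held either motif are shown from 250 bases before the start to the last base before it, 5′ to 3′ on the strand of the gene. Capitals mark the motif matches.

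Psmb8 (lower with SC1), plus strand, chr17:34197945-34198194: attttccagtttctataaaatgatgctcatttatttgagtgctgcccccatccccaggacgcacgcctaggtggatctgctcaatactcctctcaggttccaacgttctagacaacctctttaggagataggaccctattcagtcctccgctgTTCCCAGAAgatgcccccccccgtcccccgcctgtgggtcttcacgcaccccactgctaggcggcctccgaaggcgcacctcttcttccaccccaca
Bst2 (lower with SC1), minus strand, chr8:71537473-71537722: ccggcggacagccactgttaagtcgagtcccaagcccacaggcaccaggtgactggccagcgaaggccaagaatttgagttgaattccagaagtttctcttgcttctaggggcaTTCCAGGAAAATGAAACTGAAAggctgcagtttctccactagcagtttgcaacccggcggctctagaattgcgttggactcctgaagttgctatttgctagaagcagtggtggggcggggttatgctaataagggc
Isg20 (higher with SC1), plus strand, chr7:78913174-78913423: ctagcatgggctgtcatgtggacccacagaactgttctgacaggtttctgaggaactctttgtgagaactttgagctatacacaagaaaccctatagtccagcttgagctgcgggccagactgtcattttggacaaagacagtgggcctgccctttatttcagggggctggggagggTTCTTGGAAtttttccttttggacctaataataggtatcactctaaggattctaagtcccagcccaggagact
Eif2ak2 (higher with SC1), minus strand, chr17:78882573-78882822: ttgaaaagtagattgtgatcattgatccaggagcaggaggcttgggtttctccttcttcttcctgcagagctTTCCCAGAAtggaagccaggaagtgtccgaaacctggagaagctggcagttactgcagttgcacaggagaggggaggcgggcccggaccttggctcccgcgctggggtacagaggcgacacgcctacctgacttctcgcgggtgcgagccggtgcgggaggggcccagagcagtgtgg

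The Bst2 run joins a GAS match to 2 ISRE matches, which begin 130 and 124 bases before the start. Eif2ak2 also held an ISRE match, GAAAACGAAA, from base 19 after its start. Matches occurred on both sides of the comparison. Among genes with a promoter, an ISRE match was found for 3 of the 8 genes that rose (B2m, Eif2ak2 and Ifitm3) and for 2 of 9 that fell (Bst2 and Isg15). It was also found for 5 of the 6 genes whose probes did not pass the filter (Ifih1, Ifit1, Ifit3, Irf2 and Rsad2). Of the 11 genes tested but not called, 2 held an ISRE match (Ifitm2 and Stat2). A GAS match was found for 4 of the 8 that rose, 2 of the 9 that fell and 4 of the 11 not called. Of the 6 that did not pass the filter, Irf2 held a GAS match. Isg20 has further RefSeq starts, whose promoters held no match.

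After 6 h of SC1 the antigen-processing genes Psmb8 and Tap2 and the interferon-stimulated genes Rtp4 and Oasl2 were lower by more than 2-fold. These sizes depended on the processing. Over 20 alternatives the smallest log2 differences were -0.61 for Psmb8, -0.75 for Tap2, -0.40 for Rtp4 and -0.42 for Oasl2. Bst2, which encodes tetherin, was lower by 1.64-fold, and the gamma receptor gene Ifngr1 by 1.46-fold. Ifitm1, Isg20, Irf9, Eif2ak2, Ifitm3, Irf1, B2m and Jak2 were higher, each by less than 2-fold. Of the 32 tested, 8 rose, 12 fell and 12 did not pass at an adjusted p under 0.05 (limma with Benjamini-Hochberg adjustment over all 25421 genes). The share called was 62.5%, against 38.4% of all genes tested. Higher calls made up 25% of the members, against 18.1% of all genes, and lower calls 37.5%, against 20.2%. The median log2 difference of SC1 minus DMSO was -0.12 over the 32 genes and -0.0052 over all genes. For 25 of the 32 genes the SC1 and DMSO arrays did not overlap, against 13257 of all 25421 genes (52.1%). Of the 20 called genes, 14 changed by less than 1.5-fold. These shares describe only genes that passed the filter. All genes here include accessions without a RefSeq name, which the list does not hold. Usp18 passed through the SC1 arrays alone and Ifit2 through the DMSO arrays, and both are counted among the 25 genes without overlap. The remaining 30 genes were well above background on all 6 arrays.

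**Figure D1:**
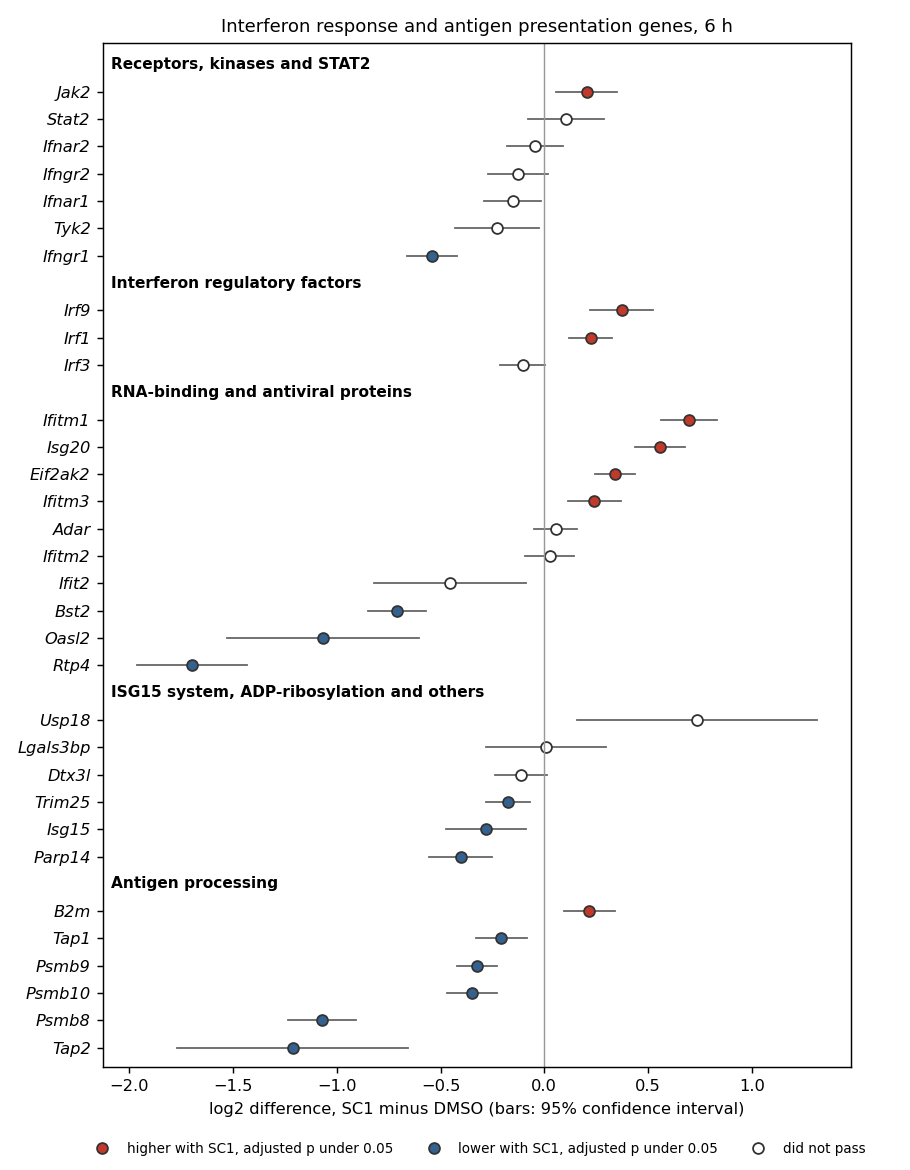
Fitted log2 difference of SC1 minus DMSO (x axis) for the 32 tested genes (rows, grouped by role), with points for the estimate and bars for its 95% confidence interval, not adjusted for the number of genes. Filled points passed at an adjusted p under 0.05. Of these, 8 lie right of 0 and 12 left of it, from -1.70 for Rtp4 to 0.70 for Ifitm1. Of the 6 antigen-processing genes 5 lie left of 0 (83.3% called lower, against 20.2% of all genes). Tap1 turned to 0.10 under normexp with 75th percentile scaling.

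All 6 arrays shared a single slide and scan, with the DMSO arrays and SC1 replicate 1 in its first row and SC1 replicates 2 and 3 in the other. Between 63.2% and 65.1% of probes were well above background on the SC1 arrays, and between 65.0% and 65.6% on the DMSO arrays. The number of arrays, 3 in each group, limits the precision. Over all genes, 47.3% of those called rose, and 57.5% did with normexp background correction and 75th percentile scaling. All 12 embryonic stem cell markers, among them Pou5f1, Nanog and Sox2, were well above background on every array, with a summed normalized signal of 68391 to 71765 with SC1 and 71172 to 73210 with DMSO. Dppa5a alone made up most of these sums. Of the 12, 3 rose (25%, against 18.1% of all genes), Fbxo15 by 1.65-fold and Sall4 and Klf4 by less. The 5 that fell (41.7%, against 20.2%) included Utf1 by 5.14-fold, Tdgf1 by 2.62-fold and Sox2 by 1.21-fold. Of 15 immune cell markers 9 were measured, and Ptprc, Lyz2, Tyrobp and Spi1 were among those that did not pass the filter. Among the 9, Itgam and Cd3e rose (22.2%, against 18.1% of all genes) and Coro1a fell (11.1%, against 20.2%). The summed signal of the 9 was 2495 to 2623 with SC1 and 2286 to 2338 with DMSO, most of it from Itgam. Of 15 fibroblast markers 12 were measured, and Lum, Postn and Twist2 did not pass the filter. Of the 12, 6 rose (50%, against 18.1% of all genes), by up to 2.36-fold for Thbs2. The 2 that fell (16.7%, against 20.2%) were Thy1 by 2.13-fold and Loxl1 by 1.45-fold. The summed signal of the 12 was 16133 to 16798 with SC1 and 15895 to 16295 with DMSO. Most of it came from Fn1, which was not called. Of 7 endothelial markers 5 were measured, of which 2 rose (40%, against 18.1%) and 1 fell (20%, against 20.2%). The summed signal of the 5 was 1314 to 1347 with SC1 and 1139 to 1249 with DMSO, most of it from Kdr. The part of these other cell types in the results was not tested. On these bulk samples fewer cells expressing a gene and less RNA per cell cannot be told apart.

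Signals are given below as normalized signal, the processed signal scaled so that the 75th percentile probe of each array is 100. They serve to compare arrays for the same probe, not genes with each other. Errors of log2 differences are standard errors with n = 3 in each group, and adjusted p values come from the limma fit.

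At the receptors, Ifngr1, which encodes the ligand-binding chain of the gamma receptor, had a normalized signal of 141, 129 and 133 with SC1, against 199.9, 195 and 192 with DMSO. The groups did not overlap, and every SC1 array was lower. The log2 difference was -0.54 (SE 0.0491, adjusted p = 0.000525), and the call held under all 20 processing alternatives. Ifngr2, the partner chain, had a log2 difference of -0.13 (95% confidence interval -0.27 to 0.02) and did not pass. Ifnar1 and Ifnar2, the chains of the type I receptor, had log2 differences of -0.15 and -0.04 and did not pass. For Ifnar1 all 3 probes had negative differences, from -0.25 to -0.15, and the mean of these probes passed (adjusted p = 0.0442, within a range of 0.0173 to 0.475 over the alternatives).

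Downstream, Jak2, the kinase bound to IFNGR2, had 101, 98.4 and 93.4 with SC1, against 88.5, 79.0 and 86.5 with DMSO. The groups did not overlap, but the log2 difference of 0.20 (SE 0.06, adjusted p = 0.0404) lay near the threshold and lost its call under 11 of the 20 alternatives. Tyk2, the kinase bound to IFNAR1, had a log2 difference of -0.23 (adjusted p = 0.0754) and Stat2 one of 0.10 (adjusted p = 0.322). Neither passed, and their SC1 arrays overlapped their DMSO arrays. Without SC1 replicate 2 Tyk2 passed with an adjusted p of 0.033 (0.0131 to 0.25 over the alternatives).

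Of the 5 interferon regulatory factors, Irf9 and Irf1 rose, Irf3 did not pass, and Irf2 and Irf7 were not tested. Irf9, a DNA-binding partner of STAT2, had 213, 204 and 233 with SC1, against 171, 161 and 169 with DMSO. This was a log2 difference of 0.37 (SE 0.0617, adjusted p = 0.00521). Irf1, a factor induced by interferon gamma, had 1025, 1020.0 and 1029 with SC1, against 911, 869 and 854 with DMSO, a log2 difference of 0.22 (SE 0.0422, adjusted p = 0.00876). Both were higher on every SC1 array than on any DMSO array. Irf3, the factor that switches on interferon genes after RNA is sensed, had a log2 difference of -0.10 (adjusted p = 0.112). Irf7, which amplifies interferon production, was well above background on 2 of the 3 DMSO arrays and on no SC1 array, and Irf2 on none. The other Irf1 probe, for another transcript, was not well above background on any array.

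Among the antiviral effectors, Rtp4, an interferon-induced member of the receptor transporter protein family, had the largest change of all members. Its normalized signal was 2.83, 3.00 and 2.44 with SC1, against 8.76, 9.96 and 8.11 with DMSO. Every SC1 array was well below every DMSO array, and the log2 difference was -1.70 (SE 0.108, adjusted p = 0.000147), a 3.25-fold decrease. Oasl2, of the oligoadenylate synthetase-like family, had 6.82, 7.38 and 4.89 with SC1, against 15.7, 11.4 and 12.7 with DMSO. It fell by 1.07 on the log2 scale (SE 0.189, adjusted p = 0.00673). Both are dim probes, and with normexp, whose offset of 50 compresses dim signals by construction, the smallest log2 differences were -0.40 for Rtp4 and -0.42 for Oasl2. Bst2, which encodes the membrane protein tetherin that holds budding virus at the cell surface, had 1107.5, 1109 and 1139 with SC1, against 1954, 1824 and 1722 with DMSO. The groups did not overlap, with a log2 difference of -0.71 (SE 0.0568, adjusted p = 0.000325).

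Other effectors rose. Ifitm1, a membrane protein gene that restricts virus entry and is also known from early germ cells, had 1886.5, 1789 and 1778.5 with SC1, against 1083, 1090.1 and 1192 with DMSO. The log2 difference was 0.70 (SE 0.0554, adjusted p = 0.000319), and the arrays of the 2 groups did not overlap. Ifitm3 had 2230.3, 2040.2 and 2135.5 with SC1, against 1799.9, 1746 and 1872 with DMSO (log2 difference 0.24, SE 0.0524, adjusted p = 0.0143). Without DMSO replicate 2 its adjusted p was 0.0504 (0.000226 to 0.45 over the alternatives). Ifitm2 had a log2 difference of 0.03 (95% confidence interval -0.09 to 0.14) and did not pass. Ifitm2, Ifitm1, Ifitm3 and Ifitm6 follow each other in this order among the protein-coding genes of chromosome 7, and Ifitm6, which is no member, rose by 0.77 (SE 0.18, adjusted p = 0.0185). That call rests on a dim probe and was lost under 5 of the 20 alternatives, among them leaving out SC1 replicate 1 (adjusted p = 0.0581) or DMSO replicate 2 (0.0545), with a range of 0.000486 to 0.06 over all of them. With normexp and quantile normalization the log2 difference was 0.23. Ifitm6 was chosen after its values were seen. The family is similar in sequence, so that signal shared between its probes cannot be told apart.

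Isg20, which encodes an exonuclease that degrades RNA, had 47.3, 48.2 and 47.0 with SC1, against 30.5, 32.9 and 33.4 with DMSO. The log2 difference was 0.56 (SE 0.0497, adjusted p = 0.000493), while its dimmer probe gave -0.03 and did not pass, so the mean of both probes was 0.26. Eif2ak2, which encodes PKR, the kinase that stops translation when it binds double-stranded RNA, had 92.0, 95.1 and 93.4 with SC1, against 75.3, 74.1 and 72.1 with DMSO. It rose by 0.34 on the log2 scale (SE 0.0402, adjusted p = 0.00145). Adar, which edits double-stranded RNA, had a log2 difference of 0.06 on its brighter probe (adjusted p = 0.356) and 0.28 on the other (adjusted p = 0.00593 over all probes). Ifit2, which binds viral RNA, was well above background on 2 of the 3 SC1 arrays and all 3 DMSO arrays, with a normalized signal of 3.19, 2.60 and 2.09 with SC1, against 3.57, 3.55 and 3.54 with DMSO. Its log2 difference was -0.46 and did not pass (adjusted p = 0.0566), but without SC1 replicate 1 the adjusted p was 0.0118 (0.0118 to 0.891 over the alternatives).

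Ifih1, which encodes the RNA sensor MDA5, Ifit1, Ifit3 and Rsad2, an antiviral enzyme gene, were not well above background on any of the 6 arrays. These are strongly interferon-induced genes, and their levels in SC1 and DMSO samples had no measurable order here.

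**Figure D2:**
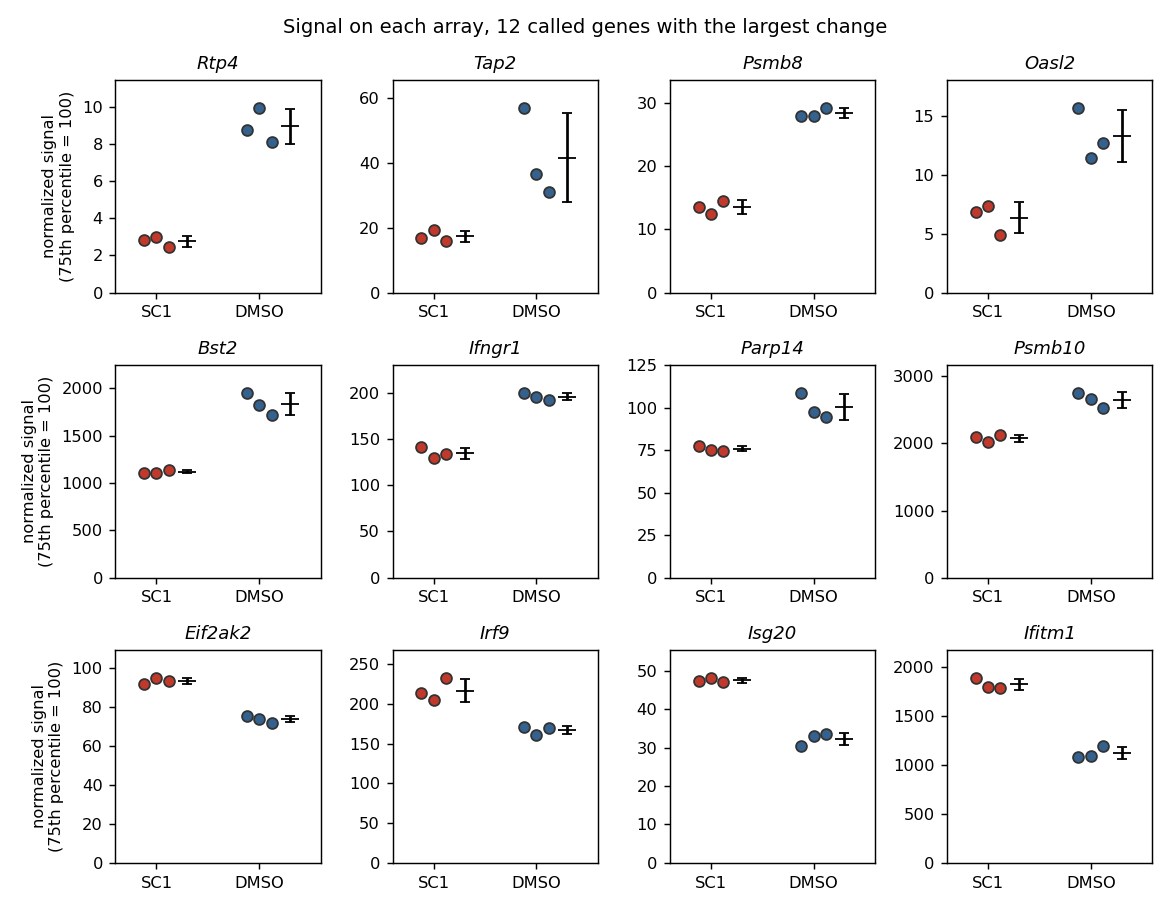
Normalized signal (y axes from 0, 75th percentile probe of each array = 100) on the 3 SC1 and 3 DMSO arrays for the 12 called genes with the largest change, ordered from the largest fall (Rtp4) to the largest rise (Ifitm1). Each point is an array, and the black mark and bar give the mean and SD of the group; no SC1 array overlaps a DMSO array in any panel, and the Tap2 DMSO arrays spread from 31.1 to 57.0.

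In the ISG15 system, Isg15 itself, the ubiquitin-like modifier, had 35.6, 33.3 and 33.1 with SC1, against 45.2, 37.4 and 41.6 with DMSO. The log2 difference of -0.28 (SE 0.0789, adjusted p = 0.0351) lost its call under 9 of the 20 alternatives, and the other Isg15 probe was not well above background. Usp18, the protease that removes ISG15, was well above background on all SC1 arrays and on no DMSO array. Its mean normalized signals were 3.03 ± 0.245 with SC1 and 1.88 ± 0.555 with DMSO (SD, n = 3 each). It entered the test only through the SC1 arrays, the fitted difference of 0.74 did not pass (adjusted p = 0.0532), and the log2 difference lay between 0.07 and 0.93 over the alternatives, 5 of which passed. Without DMSO replicate 1 its adjusted p was 0.0142 (0.00175 to 0.369 over the alternatives), under the same filter. Trim25, a ubiquitin and ISG15 ligase gene that acts on the RNA sensor RIG-I, had 3786, 3999 and 3792 with SC1, against 4420.2, 4377 and 4253 with DMSO. Its log2 difference of -0.17 (SE 0.0435, adjusted p = 0.0239) lost its call under 12 alternatives.

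Parp14, an ADP-ribosyltransferase gene, had 77.5, 75.2 and 74.8 with SC1, against 109, 97.8 and 94.7 with DMSO, a log2 difference of -0.40 (SE 0.0626, adjusted p = 0.00409). Its neighbour Dtx3l, a ubiquitin ligase gene whose product pairs with PARP9, had a log2 difference of -0.11 on its brighter probe (adjusted p = 0.135) and -0.49 on the other (adjusted p = 0.00656 over all probes). Lgals3bp, which encodes a secreted glycoprotein, had a log2 difference of 0.01 on its brighter probe (adjusted p = 0.966) and -0.24 on the other (adjusted p = 0.0344 over all probes). For Dtx3l and Lgals3bp, as for Adar and Isg20, a call thus depended on the probe.

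All 6 antigen-processing members were called (100%, against 38.4% of all genes). Of these, 5 were lower (83.3%, against 20.2%) and B2m was higher. Psmb8, Psmb9 and Psmb10 encode the catalytic subunits of the immunoproteasome, which cuts proteins into peptides suited to class I molecules. Psmb8 had 13.6, 12.4 and 14.5 with SC1, against 27.8, 27.9 and 29.2 with DMSO. The log2 difference was -1.07 (SE 0.0668, adjusted p = 0.000139), a 2.10-fold decrease. With normexp and 75th percentile scaling it was -0.61. Psmb9 had 86.7, 86.1 and 86.2 with SC1, against 106.9, 111 and 106 with DMSO (log2 difference -0.33, SE 0.0391, adjusted p = 0.00155). Psmb10 had 2092, 2018 and 2124 with SC1, against 2756.5, 2656.5 and 2524 with DMSO (log2 difference -0.35, SE 0.0498, adjusted p = 0.00301).

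The constitutive subunits that these replace did not pass. Psmb5 had a log2 difference of -0.05 (95% confidence interval -0.20 to 0.09), Psmb6 one of -0.01 (-0.12 to 0.10) and Psmb7 one of -0.07 (-0.22 to 0.08). Psmb5, Psmb6 and Psmb7 were chosen after their values were seen. Whether the immunoproteasome genes differed from them in response was not tested.

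The peptide transporter genes were lower. Tap2 had 16.9, 19.3 and 16.0 with SC1, against 57.0, 36.6 and 31.1 with DMSO. It fell by 1.21 on the log2 scale (SE 0.227, adjusted p = 0.00834), and DMSO replicate 1 stood above the other DMSO arrays. Without that array the log2 difference was -0.96 (adjusted p = 0.00451), and with normexp and 75th percentile scaling it was -0.75. Tap1, the partner subunit, had 3.46, 3.51 and 3.31 with SC1, against 3.78, 4.11 and 3.98 with DMSO. The log2 difference of -0.21 (SE 0.0501, adjusted p = 0.0208) rested on a dim probe, lost its call under 10 alternatives and turned to 0.10 (adjusted p = 0.144) under normexp with 75th percentile scaling. Psmb9, Tap1, Psmb8 and Tap2 follow each other in this order within the MHC region of chromosome 17.

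B2m, the light chain shared by all class I molecules, moved the other way, with 309, 283 and 299.7 with SC1, against 251, 251 and 264 with DMSO. The log2 difference of 0.22 (SE 0.0502, adjusted p = 0.0178) lost its call under 7 alternatives.

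Genes of the same pathways outside the 39 were read from a list of 118, of which 90 were tested. Of these, 21 rose, 24 fell and 45 did not pass, a called share of 50%, against 38.4% of all genes. Their median log2 difference was -0.04. Of the 22 tested antigen presentation genes of this list, 3 rose (13.6%, against 18.1% of all genes) and 8 fell (36.4%, against 20.2%). The remaining 11 did not pass. Of 6 class I heavy chain genes of the H2 family, a group drawn up after the values were seen, 5 were tested and all 5 fell, against 20.2% of all genes: H2-M3, which presents formylated peptides, 2.12-fold, H2-K1 1.94-fold, H2-D1 1.80-fold, H2-Q1 1.46-fold and H2-T23 1.36-fold. The H2-Q1 call rests on a dim probe and was lost under 9 of the 20 alternatives, among them leaving out SC1 replicate 1 or 2 or DMSO replicate 1 or 2. With normexp and 75th percentile scaling the log2 difference was -0.015 for H2-Q1 (adjusted p = 0.881, the highest of a range that began at 0.00649) and -0.66 for H2-M3, which kept its call. Outside the H2 family, Cd1d1, a class I-like gene that presents lipids, rose by 0.45 (SE 0.042, adjusted p = 0.000612), a call lost under spike-in scaling, and Hfe, a class I-like gene of iron regulation, had a log2 difference of -0.03 (adjusted p = 0.862). H2-K1 had 354, 302 and 339.6 with SC1, against 611, 634 and 682 with DMSO, and its 2 probes gave log2 differences of -0.95 and -0.89. H2-D1 had 95.5, 84.0 and 86.7 with SC1, against 143, 163 and 174 with DMSO. Class I genes are close in sequence, so that signal shared between them cannot be told apart. H2-K1, H2-D1, H2-T23, H2-Q1, Cd1d1 and Hfe were chosen after their values were seen.

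Chaperones of peptide loading were mixed. Tapbpl, which encodes the tapasin-related editor TAPBPR, rose by 0.65 on the log2 scale (SE 0.0494, adjusted p = 0.00027). Tapasin itself, Tapbp, rose by 0.17 (adjusted p = 0.0382), and Calr, which encodes calreticulin, had a log2 difference of -0.20 (adjusted p = 0.0284); both calls were lost under over 10 alternatives. Canx, Pdia3 and Erap1 had log2 differences of -0.13, -0.14 and -0.23 and did not pass. The dim Erap1 probe was well above background on 1 of the 3 SC1 arrays and on all 3 DMSO arrays. Nlrc5, the transactivator of class I genes, had a log2 difference of 0.09 (adjusted p = 0.553). Of class II, H2-Ab1 had a log2 difference of -0.78 (adjusted p = 0.000453), and Cd74, the invariant chain gene, one of -0.36 (adjusted p = 0.0493), a call lost under 12 alternatives. H2-Aa and Ciita, the other class II genes listed, were not well above background on any array. These genes other than Tapbpl were chosen after their values were seen.

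**Figure D3:**
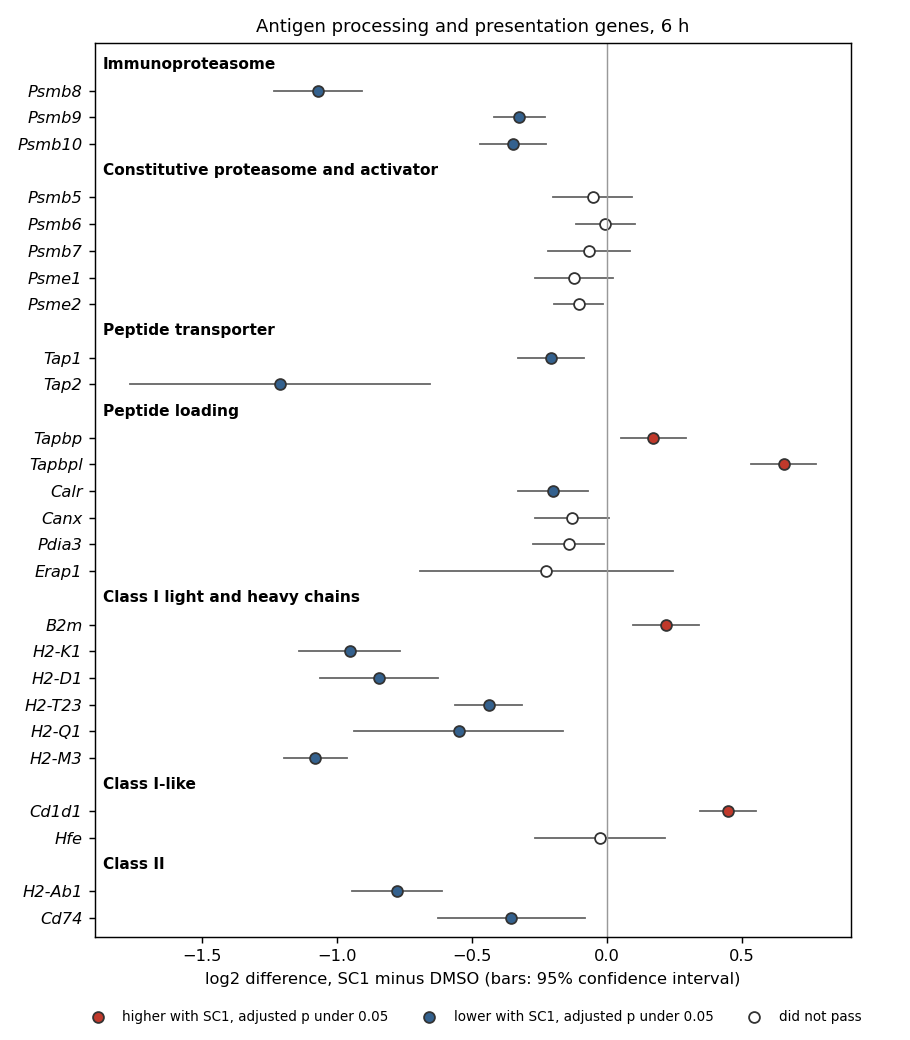
Fitted log2 difference of SC1 minus DMSO (x axis) for antigen processing and presentation genes (rows, grouped by role), with bars for the 95% confidence interval and filled points for an adjusted p under 0.05. The immunoproteasome, transporter and H2 class I heavy chain genes lie left of 0, down to -1.21 for Tap2, B2m, Tapbp, Tapbpl and Cd1d1 lie right of it at 0.22, 0.17, 0.65 and 0.45, and the constitutive subunits Psmb5, Psmb6 and Psmb7 lie between -0.07 and -0.01; Tap1 turned to 0.10 and H2-Q1 moved to -0.015 under normexp with 75th percentile scaling.

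RNA sensing held the largest change of the pathway. Rigi (listed as Ddx58), which encodes the cytosolic RNA sensor RIG-I, had a normalized signal of 117, 119.6 and 119 with SC1, against 671, 669 and 694 with DMSO. The log2 difference was -2.51 (SE 0.0389, adjusted p = 2.8e-06), a 5.72-fold decrease, and its other probe gave -2.61. Of 15 tested sensing genes 7 rose (46.7%, against 18.1% of all genes) and 5 fell (33.3%, against 20.2%). Cgas, the DNA sensor gene, rose by 0.41 and Sting1, its adaptor, had a log2 difference of -0.48 (adjusted p = 0.0117 and 0.000975), both chosen after their values were seen. The Cgas call was lost under spike-in scaling and the slide column as a block, and the Sting1 call under the slide column.

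Among other effectors, Xaf1, which encodes a pro-apoptotic partner of XIAP, rose 3.10-fold, with 99.3, 94.4 and 95.4 with SC1, against 30.9, 28.7 and 33.7 with DMSO. Helz2, a helicase gene, rose by 0.54 on the log2 scale (SE 0.0419, adjusted p = 0.000297). Tor3a, an interferon-inducible gene of the torsin family, fell 2.23-fold and Ube2l6, the ISG15-conjugating enzyme gene, 2.18-fold. Ube2l6 had 226, 206 and 228 with SC1, against 486, 465 and 486 with DMSO. Of the 35 tested effectors 10 rose (28.6%, against 18.1% of all genes) and 7 fell (20%, against 20.2%). The adjusted p values of Xaf1, Tor3a and Ube2l6 were 3.78e-05, 4.37e-05 and 6.38e-05. The calls of Rigi, Xaf1, Helz2, Tor3a, Ube2l6, H2-M3 and Tapbpl held under all 20 alternatives.

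Of 16 tested signalling genes 1 rose (6.25%, against 18.1% of all genes) and 4 fell (25%, against 20.2%). The share called, 5 of 16 or 31.2%, lay near the 38.4% of all genes. Stat3, the LIF effector, rose by 0.42 (adjusted p = 0.0027). Socs3, a feedback inhibitor of JAK kinases, had a log2 difference of -0.64 (adjusted p = 0.0118), while Jak1 (-0.03) and Socs1 (0.10) did not pass. With the slide column as a block the Stat3 and Socs3 calls were lost (adjusted p = 0.0722 and 0.0771), and with spike-in scaling that of Stat3. Over the alternatives the adjusted p ranged up to 0.0808 for Stat3 and 0.0771 for Socs3. Stat3, Socs3, Jak1 and Socs1 were chosen after their values were seen. Of 9 interferon ligand genes 2 were tested and neither passed, and Ifnb1 and Ifng were not well above background on any array.

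How far each of the 20 calls depended on the processing was read from 20 alternatives, none of which used a gene's dimmer probe alone. The calls of Rtp4, Psmb8, Bst2, Ifngr1, Isg20 and Ifitm1 held under all of them, though the dimmer Isg20 probe did not pass. Those of Tap2 and Oasl2 were lost under 1, the slide row as a block, with an adjusted p of 0.064 (3.16e-07 to 0.064 over the alternatives) and 0.0745 (1.17e-06 to 0.0745). Parp14, Psmb9, Psmb10 and Eif2ak2 lost their call under 2 alternatives, and Irf1, Irf9 and Ifitm3 under 3. Most of these losses came with spike-in scaling or a slide position as a block. Jak2, Trim25, Isg15, Tap1 and B2m, all changed by 1.21-fold or less, lost theirs also when single arrays were left out.

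**Figure D4:**
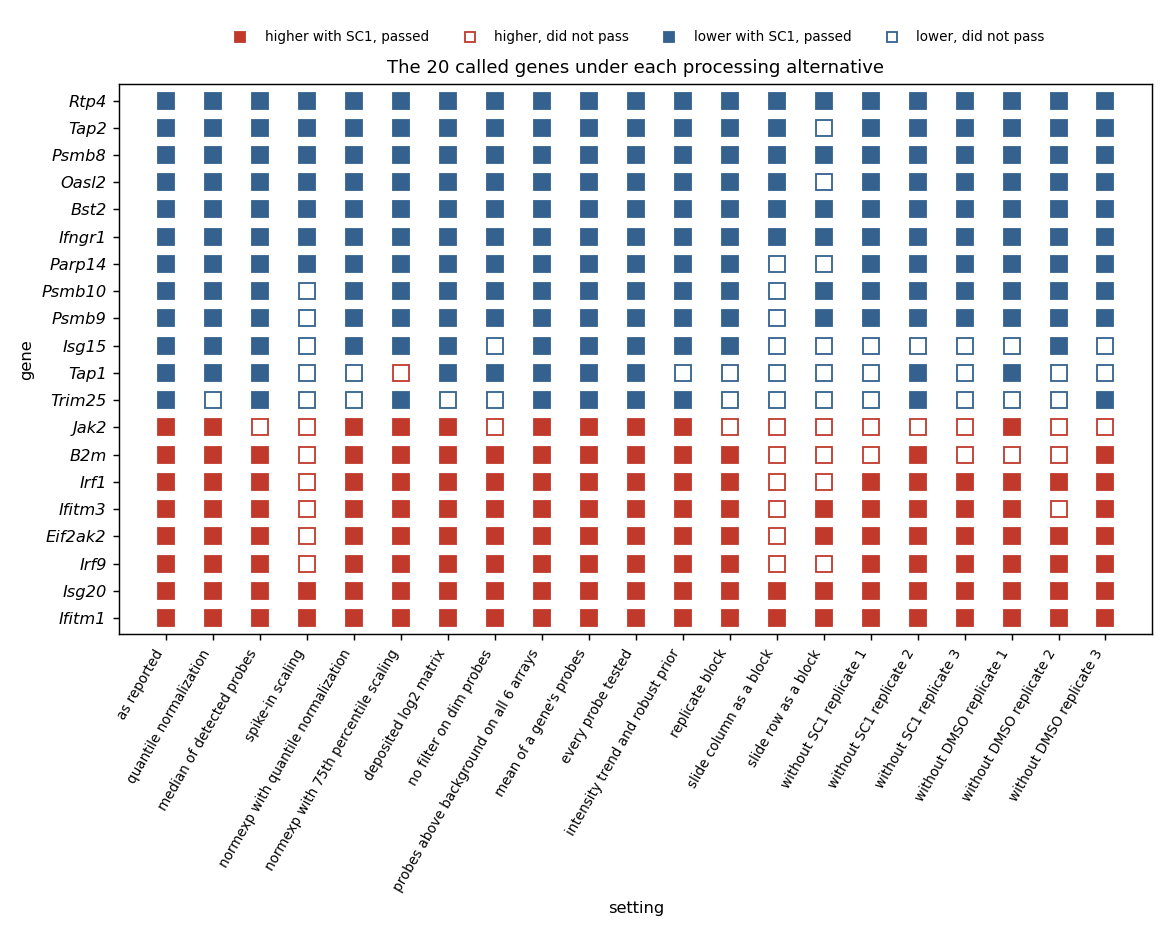
Call of each of the 20 called genes (rows) in the analysis as reported and under 20 processing alternatives (columns). Filled squares passed at an adjusted p under 0.05 and open squares did not, in red for higher and blue for lower with SC1; the 6 genes with every square filled are Rtp4, Psmb8, Bst2, Ifngr1, Isg20 and Ifitm1, and Tap1 is the gene with a square of the other direction.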

How the data were processed

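RNA of 3 SC1-treated and 3 DMSO-treated samples was labelled with Cy3 and read on single-colour arrays. Spots were quantified with Agilent Feature Extraction 10.7, per the submitters' processing notes. The deposited files hold an intensity per spot, corrected for background and spatial trend by that software per the file headers, with 0 or 1 flags. A matrix of log2 values was deposited beside them, whose making is not given in the sources used here; each of its columns had the median 5.17.

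Outlier spots (137 to 201 per array) were dropped, log2 processed signals of a probe averaged, and each array's 75th percentile subtracted. Probes well above background on all 3 arrays of a group were kept, and the brightest probe stood for a gene. RefSeq accessions named 27229 probes. Groups were compared with limma 3.58.1 in R 4.3.3 (two-sided, Benjamini-Hochberg, threshold 0.05), tested on simulated data. Confidence intervals (95%) come from the same fit.

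The members, lists and tests were chosen with earlier results of these data known. All members were described; of other genes, the 4 highest-ranked calls in each direction by p were named, except 1 not reported here, and further ones as stated. Alternatives were other scalings, background correction, filters, probe summaries, variance models, blocks and leaving out each array; the slide row was added after the data were seen. Samples were not paired by replicate number in the main fit. Deviations of same-numbered samples had correlations of -0.0365 to -0.0133, which with 3 arrays per group cannot settle whether the samples were paired. Figures used Python 3.11.15 and matplotlib 3.10.9.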

Additional observations from a re-analysis of the deposited data

How the results depend on the processing

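The median log2 difference of the 32 genes stayed below 0 under all 20 alternatives. It was -0.0864 with quantile normalization, -0.0885 with the deposited matrix, -0.1603 with spike-in scaling, -0.0469 with normexp and quantile normalization, -0.0672 with normexp and 75th percentile scaling, and -0.1499 with the mean of a gene's probes. With spike-in scaling 5067 of all genes were called, against 9752 as reported, with 3 members higher and 8 lower, and 9 other interferon genes higher and 17 lower. With the slide column as a block 3324 genes were called, 2 members rose and 6 fell, and 8 other interferon genes rose and 13 fell; this fit rests on the 2 columns that hold both groups. With the slide row as a block, which compares SC1 replicate 1 with DMSO, 5542 genes were called, 4 members rose and 6 fell. Leaving out each array gave 7790 to 8447 genes, 5 to 8 members higher and 9 to 12 lower, medians of -0.13 to -0.11, and 16 to 21 other genes higher and 18 to 24 lower; the 5 came without DMSO replicate 2. With the replicate block 7914 genes were called, 8 members rose and 10 fell. In this check 0 of 3 SC1 samples correlated best with their own number, which cannot settle whether the samples were paired. Tap1 turned to 0.10 under normexp with 75th percentile scaling. Except where a value bears on it, the cause was not tested. Dim probes (Rtp4, Oasl2, Tap1, Ifit2, Usp18, Ifitm6, H2-Q1, Nlrc5, Erap1) lie near the background, which limits their fold changes.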
